A study of Mus musculus with 6 samples.

Results

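The epidermal growth factor (EGF) receptor family comprises the receptor tyrosine kinase genes Egfr, Erbb2, Erbb3 and Erbb4. The ligand genes described with them are Areg, Ereg, Hbegf, Tgfa and Btc. These 9 genes were taken by symbol from the 31815 mouse gene rows of the deposited count table, and each symbol stood on 1 row. All 9 were among the 15462 genes abundant enough to test.

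The libraries hold poly(A) RNA of cells sorted from the cortex and outer medulla of kidneys of male mice aged 9 to 12 weeks, on day 6 after bilateral ischemia reperfusion injury. All mice were Axin2CreERT2/+:R26RtdT/+:Acta2-GFP and received tamoxifen on days 2 and 4. A cell that used the Axin2 promoter, which canonical Wnt signalling drives, while tamoxifen was active keeps a red label (tdT). A cell in which the Acta2 promoter is on carries GFP, and that promoter also serves vascular smooth muscle. The groups were tdT+GFP+ cells (3 libraries) and tdT-GFP+ cells (3 libraries), and kidneys 1, 2 and 3 each gave 1 library of either kind, numbered here by the kidney that the labels name. Cells without the red label were not shown to lack Wnt activity, and both groups carry the Cre allele in 1 copy of Axin2. No source used here says if a kidney number stands for 1 animal.

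EGF receptors pair on the cell surface when a ligand binds, and the pair starts the ERK and PI3K kinase cascades. ErbB2 binds no known ligand of its own and acts as a partner, and ErbB3 has little kinase activity and signals through its partner. The ligands are made as membrane-anchored precursors that metalloproteases release. In the kidney EGF itself is a product of the distal nephron, EGFR serves tubule repair after acute injury, and sustained EGFR activity has been tied to interstitial fibrosis.

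None of the 9 genes passed the test between the groups, and Areg and Tgfa were the 2 members whose groups did not overlap. They went opposite ways, with Areg higher and Tgfa lower in tdT+GFP+ cells. Egfr and Ereg had higher values and Erbb4 and Hbegf lower values in tdT+GFP+ cells of every kidney as the labels number them, with overlapping groups. Erbb2 differed little between any libraries, yet it too was higher in tdT+GFP+ cells of every kidney (by 0.11, 0.02 and 0.02 in log2 CPM). The share of all genes with 1 sign in every kidney was not counted, and the counts do not bear out the kidney numbers. At an adjusted p under 0.05 in edgeR's quasi-likelihood test, 0 of 9 members were called, beside 0% of the 15462 genes tested. At an unadjusted p under 0.05 the count was 1 of 9 (Tgfa), beside 10.7% of all genes tested (3.71% higher and 6.97% lower in tdT+GFP+ cells). DESeq2 called 0 of 9 after adjustment, beside 1.93% of all genes with an adjusted p (0.117% higher, 1.81% lower), and limma-voom called 0 of 9. Of the 9 members, 4 had positive and 5 negative log2 fold changes (tdT+GFP+ over tdT-GFP+), with a median of -0.11, beside 7718 positive, 7744 negative and a median of -0.0004 over all genes tested. Groups that did not overlap, 2 of 9 members, were found for 15.8% of all genes tested.

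The promoters of Areg and Tgfa are shown because these are the members whose groups did not overlap. The table of RefSeq promoters (build GRCm38.p6) matched 6 of the 9 members; Erbb3, Ereg and Hbegf had no entry. The 250 bases before the annotated start are printed 5′ to 3′ on the plus strand, at chr5:91139349-91139598 for Areg and chr6:86194972-86195221 for Tgfa. Capitals mark matches to the motifs searched.
Areg: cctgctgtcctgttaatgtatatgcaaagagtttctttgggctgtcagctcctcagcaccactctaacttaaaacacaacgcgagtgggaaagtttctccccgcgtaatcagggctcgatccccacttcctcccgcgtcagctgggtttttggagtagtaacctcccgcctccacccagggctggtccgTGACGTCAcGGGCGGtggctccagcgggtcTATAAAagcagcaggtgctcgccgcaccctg
Tgfa: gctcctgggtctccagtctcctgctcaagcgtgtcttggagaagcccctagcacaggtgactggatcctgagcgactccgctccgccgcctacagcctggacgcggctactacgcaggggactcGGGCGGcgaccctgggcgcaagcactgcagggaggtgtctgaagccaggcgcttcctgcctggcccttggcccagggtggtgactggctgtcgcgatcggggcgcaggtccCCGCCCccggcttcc

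Both strands were searched for 6 motifs. The cyclic AMP response element TGACGTCA was in 1.55% of the 32851 promoter windows of this length, the TATA box TATAAA in 12.4%, the GC box GGGCGG in 32.7%, the AP-1 motif TGANTCA in 6.75%, the TEAD motif GGAATG in 12.6% and the TCF/LEF motif CTTTGAT in 3.21%. Areg held the cyclic AMP response element from 61 bases, the GC box from 52 bases and the TATA box from 31 bases before the start. Tgfa held the GC box from 126 and from 15 bases before the start, the latter on the minus strand. No motif match overlapped another in these windows. Of the other members with an entry, Egfr held a GC box from 9 bases and Erbb2 the TEAD motif from 88 bases before the start, and none of the 6 was found in Erbb4 or Btc. A match describes these letters only.

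Per length of exon, the ligand gene Hbegf and the receptor genes Egfr and Erbb2 were the most abundant members in both kinds of cells. Levels were set between genes as CPM (read counts scaled to the library size) divided by the annotated exon length in kb, over all 6 libraries. Hbegf stood at 19.4 ± 4.83 CPM per kb (SD, n = 6), Egfr at 12.3 ± 2.77 and Erbb2 at 10.9 ± 0.394. These 3 overlapped with their neighbour in the order: Hbegf was above Egfr in 5 of 6 libraries, and Egfr above Erbb2 in 4 of 6. A gap followed, since Erbb2 lay above Areg (4.10 ± 0.936 CPM per kb) in every library with separate ranges. Erbb3 came next at 2.45 ± 0.854 and Ereg at 1.73 ± 0.952 CPM per kb, and Erbb3 was above Ereg in 3 of 6 libraries, so their order is not settled. Tgfa had 0.604 ± 0.281, Erbb4 0.399 ± 0.199 and Btc 0.158 ± 0.0591 CPM per kb. Tgfa was above Erbb4 in each library, though their ranges over the libraries overlapped. With the longest annotated transcript in place of all exons the order of the 9 genes did not change, but Hbegf had 32.4 CPM per kb.

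**Figure D1:**
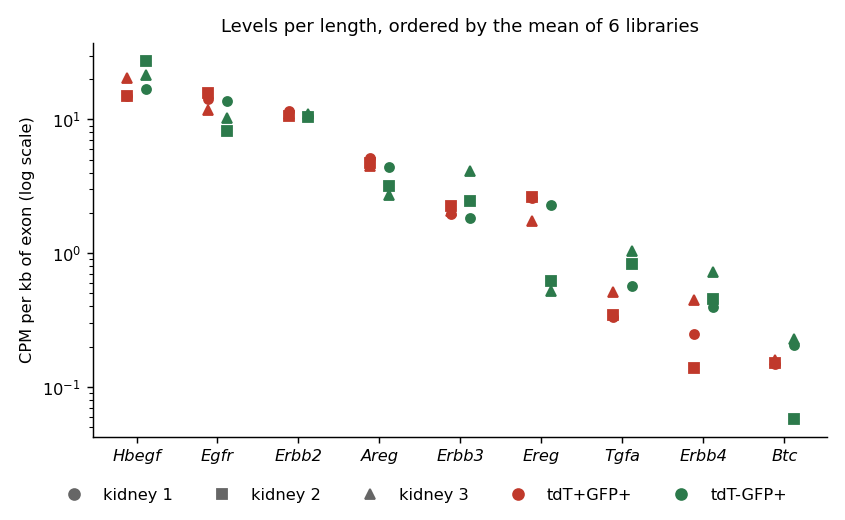
Level of each member in CPM per kb of exon (log axis) in the 6 libraries, ordered by the mean; colour gives the sorted population and marker shape the kidney. Hbegf, Egfr and Erbb2 lie above the others, and Btc is lowest with a mean of 0.158 CPM per kb.

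The sum over the 4 receptor genes overlapped between the populations, and so did the sum over the 5 ligand genes. The tdT+GFP+ libraries had a receptor sum of 27.3 ± 1.69 CPM per kb and the tdT-GFP+ libraries one of 24.7 ± 2.77 (SD, n = 3 each, exact permutation p = 0.3, two-sided; 3 against 3 cannot go below 0.1). The ligand sum was 24.4 ± 2.49 against 27.5 ± 4.19 CPM per kb (exact permutation p = 0.4, two-sided, n = 3 each). Within the ligand sum, Hbegf took 64.7%, 65.7% and 74.9% in the tdT+GFP+ cells of kidneys 1, 2 and 3, against 69.4%, 85.4% and 82.6% in the tdT-GFP+ cells. Areg and Ereg filled most of the remainder, with Areg at 16.3% to 22.1% in tdT+GFP+ and 9.92% to 18.0% in tdT-GFP+ libraries. Ereg ran from 6.35% to 11.5% and from 1.91% to 9.34%, so the shares of these ligands overlapped between the groups. Within the receptor sum, Egfr and Erbb2 together left 6.81% to 15.9% to Erbb3 and 0.484% to 2.77% to Erbb4.

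Egfr, the receptor of all 5 ligands, was abundant, above 91.8% of all genes tested by mean CPM. That rank takes no account of gene length, and Egfr has 11.3 kb of exon. Egfr (ENSMUSG00000020122.16, chromosome 11 of GRCm38, 16752203 to 16918158, plus strand) had 161, 177 and 134 CPM in the tdT+GFP+ cells of kidneys 1, 2 and 3, against 156, 93.1 and 115 CPM in the tdT-GFP+ cells. The groups overlapped through library 1 of tdT-GFP+ cells, which stood with the tdT+GFP+ libraries. With means of 158 ± 21.8 and 121 ± 31.9 CPM (SD, n = 3 each), Egfr had a log2 fold change of 0.37 (95% interval -0.11 to 0.86, SE 0.20, edgeR adjusted p = 0.509). The value was 0.21 without library 2 of tdT-GFP+ cells, 0.61 without its library 1 and 0.12 without kidney 2. In bulk RNA such as this, fewer cells of a type and less RNA per cell cannot be told apart.

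Erbb2, the shared partner receptor, was among the steadiest genes of the data. Its CPM (ENSMUSG00000062312.5, chromosome 11, 98412470 to 98437716, plus strand) were 60.0, 54.9 and 57.6 in the tdT+GFP+ cells of kidneys 1, 2 and 3, against 55.6, 54.4 and 56.7 in the tdT-GFP+ cells. The highest library was 1.10 times the lowest, and 2.71% of all genes tested had a smaller SD of log2 CPM over the 6 libraries. Erbb2 had a log2 fold change of 0.05 (edgeR, SE 0.06, adjusted p = 0.755), and the 95% interval of the fold reached from 0.931-fold to 1.15-fold. Erbb2 shares exon bases with Mien1 on the opposite strand (14.5 to 18.4 CPM), and Ereg and Tgfa share some with the antisense genes Gm19610 (0 to 4 reads) and Gm43917. No source used here says if reads were assigned by strand.

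Erbb3, which signals through its partners, was even among 5 libraries and stood out in 1. Erbb3 (ENSMUSG00000018166.8, chromosome 10, 128567523 to 128589652, minus strand) had 11.8, 13.6 and 12.4 CPM in the tdT+GFP+ cells of kidneys 1, 2 and 3, against 10.9, 14.6 and 24.8 CPM in the tdT-GFP+ cells. Library 3 of tdT-GFP+ cells was the high one, and the groups overlapped. The log2 fold change of -0.41 (edgeR, SE 0.29, adjusted p = 0.583) was -0.02 without that library and -0.63 without library 1 of tdT-GFP+ cells. That high library also had the largest sum over 12 general and injured epithelial markers, 6014 CPM against 2362 to 3593 in the others. Spp1 made most of this sum, with 4795 CPM there and 1977 to 3157 CPM in the others. Epcam, Krt18, Krt19 and Lcn2 were not highest in that library, and the rest of the list was. Erbb3 is also known from Schwann cells, and Sox10, a transcription factor gene that marks them, was at 0.0381 to 0.263 CPM.

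Erbb4, the neuregulin receptor that also binds Hbegf and Btc products, was scarce and varied most among the receptors. Its values (ENSMUSG00000062209.15, chromosome 1, 68032186 to 69108059, minus strand) were 3.05, 1.71 and 5.52 CPM in the tdT+GFP+ cells of kidneys 1, 2 and 3, against 4.90, 5.57 and 8.86 CPM in the tdT-GFP+ cells. Each of the 3 kidneys had the lower value in tdT+GFP+ cells, and the groups overlapped through library 3 of tdT+GFP+ cells. Erbb4 had a log2 fold change of -0.92 (edgeR, SE 0.45, adjusted p = 0.494), with a 95% interval that included 0, and it ran from -0.60 without library 2 to -1.42 without library 3 of tdT+GFP+ cells. The 6 libraries stood in the same order for Erbb4 as for Umod, the uromodulin gene that marks the thick ascending limb of the loop of Henle. Umod had 121, 82.5 and 451 CPM in the tdT+GFP+ cells of kidneys 1, 2 and 3, against 353, 621 and 754 CPM in the tdT-GFP+ cells. The part of loop cells in the Erbb4 values was not tested.

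Tgfa, the gene of transforming growth factor alpha, an EGFR ligand known from epithelium and from macrophages, was low in all libraries and had its lower values in tdT+GFP+ cells. Tgfa (ENSMUSG00000029999.14, chromosome 6, 86195223 to 86275719, plus strand) had 2.17, 2.22 and 3.31 CPM in the tdT+GFP+ cells of kidneys 1, 2 and 3, against 3.69, 5.34 and 6.79 CPM in the tdT-GFP+ cells. All tdT+GFP+ libraries lay below all tdT-GFP+ libraries, as they did for 8.6% of the genes tested. The means were 2.57 ± 0.645 and 5.27 ± 1.55 CPM (SD, n = 3 each), from 69 to 183 reads per library. For Tgfa the log2 fold change was -1.04 (95% interval -1.75 to -0.33, SE 0.30), with an unadjusted p of 0.0106 and an adjusted p of 0.414 in edgeR, so it did not pass. Leaving out 1 library gave -0.81 to -1.25. The summed endothelial markers (692 to 1252 against 1294 to 2918 CPM) were also lower without overlap, and the summed loop and distal tubule markers (159 to 622 against 497 to 1067 CPM) lower with overlap. Macrophage markers went the other way, with all 12 log2 fold changes positive and overlapping sums (525 to 1897 against 382 to 1117 CPM). The part of any of these cells in the Tgfa values was not tested. The adjusted p was 0.0799 in DESeq2 and 0.131 in DESeq2 with the kidney as a block.

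Areg, which encodes the EGFR ligand amphiregulin, was the member with higher values in every tdT+GFP+ library. Areg (ENSMUSG00000029378.5, chromosome 5, 91139599 to 91148432, plus strand) had 6.25, 5.70 and 5.40 CPM in the tdT+GFP+ cells of kidneys 1, 2 and 3, against 5.33, 3.89 and 3.30 CPM in the tdT-GFP+ cells. The groups did not overlap, which held in this direction for 7.23% of the genes tested, but library 3 of tdT+GFP+ and library 1 of tdT-GFP+ cells nearly met. The means of 5.79 ± 0.432 and 4.17 ± 1.05 CPM (SD, n = 3 each) correspond to a difference on the log2 scale of 0.47 (95% interval -0.04 to 0.98, SE 0.21, edgeR adjusted p = 0.477). The libraries stood in exactly the reverse order for Areg and Tgfa.

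Ereg, the gene of epiregulin, a ligand of EGFR and ErbB4, had the largest SD of log2 CPM among the 9 genes. Ereg lies 45952 bases before Areg on the same strand (ENSMUSG00000029377.5, chromosome 5, 91074622 to 91093646). It had 10.7, 10.8 and 7.15 CPM in the tdT+GFP+ cells of kidneys 1, 2 and 3, against 9.38, 2.54 and 2.15 CPM in the tdT-GFP+ cells. Libraries 2 and 3 of tdT-GFP+ cells were low, whereas library 1 of tdT-GFP+ cells lay within the range of the tdT+GFP+ libraries, so that the groups overlapped. The means were 9.55 ± 2.08 and 4.69 ± 4.07 CPM (SD, n = 3 each), for a log2 fold change of 1.02 (95% interval -0.36 to 2.40, SE 0.57, edgeR adjusted p = 0.518). It was 2.04 without library 1 and 0.68 without library 3 of tdT-GFP+ cells. In kidneys 1, 2 and 3 the differences of log2 CPM were 0.19, 2.05 and 1.70.

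Hbegf, which encodes heparin-binding EGF-like growth factor, was the most abundant ligand and had lower values in tdT+GFP+ cells in each kidney. Hbegf (ENSMUSG00000024486.6, chromosome 18, 36504927 to 36515805, minus strand) had 72.9, 72.0 and 98.8 CPM in the tdT+GFP+ cells of kidneys 1, 2 and 3, against 81.7, 133 and 103 CPM in the tdT-GFP+ cells. The groups overlapped, since library 1 of tdT-GFP+ cells lay below library 3 of tdT+GFP+ cells. For Hbegf the log2 fold change was -0.39 (95% interval -0.88 to 0.11, SE 0.21, edgeR adjusted p = 0.509), and -0.20 without library 2 of tdT-GFP+ cells. The order of the libraries was the exact reverse of that for Egfr. Hbegf is also an immediate early gene, and the sum over 12 dissociation stress genes such as Jun was 9300 to 16423 CPM in tdT+GFP+ and 13003 to 18618 CPM in tdT-GFP+ libraries. Log2 fold changes were positive for 4 and negative for 8 of these 12, which did not share 1 order of the libraries. Jun was lowest in library 2 of tdT+GFP+ cells (1632 CPM) and highest in library 2 of tdT-GFP+ cells (2960 CPM), as Hbegf was. Junb, Jund, Atf3 and Dnajb1 had these extremes too. Ier2 was instead highest in library 1 of tdT+GFP+ cells (442 CPM) and lowest in library 3 of tdT-GFP+ cells (282 CPM), as was Btg2. The rest of the list had neither pair of extremes. The part of the cell isolation in these values was not tested.

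Btc, the betacellulin gene, was near the limit of what these libraries show. Btc (ENSMUSG00000082361.6, chromosome 5, 91357261 to 91402994, minus strand) had 22, 21 and 19 reads in the tdT+GFP+ cells of kidneys 1, 2 and 3, against 28, 7 and 28 reads in the tdT-GFP+ cells. The means were 0.690 ± 0.0284 and 0.740 ± 0.419 CPM (SD, n = 3 each). The log2 fold change of -0.11 (95% interval -1.30 to 1.09, SE 0.50, edgeR adjusted p = 0.944) turned to 0.21 without library 3 of tdT-GFP+ cells and was -0.51 without its library 2.

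**Figure D2:**
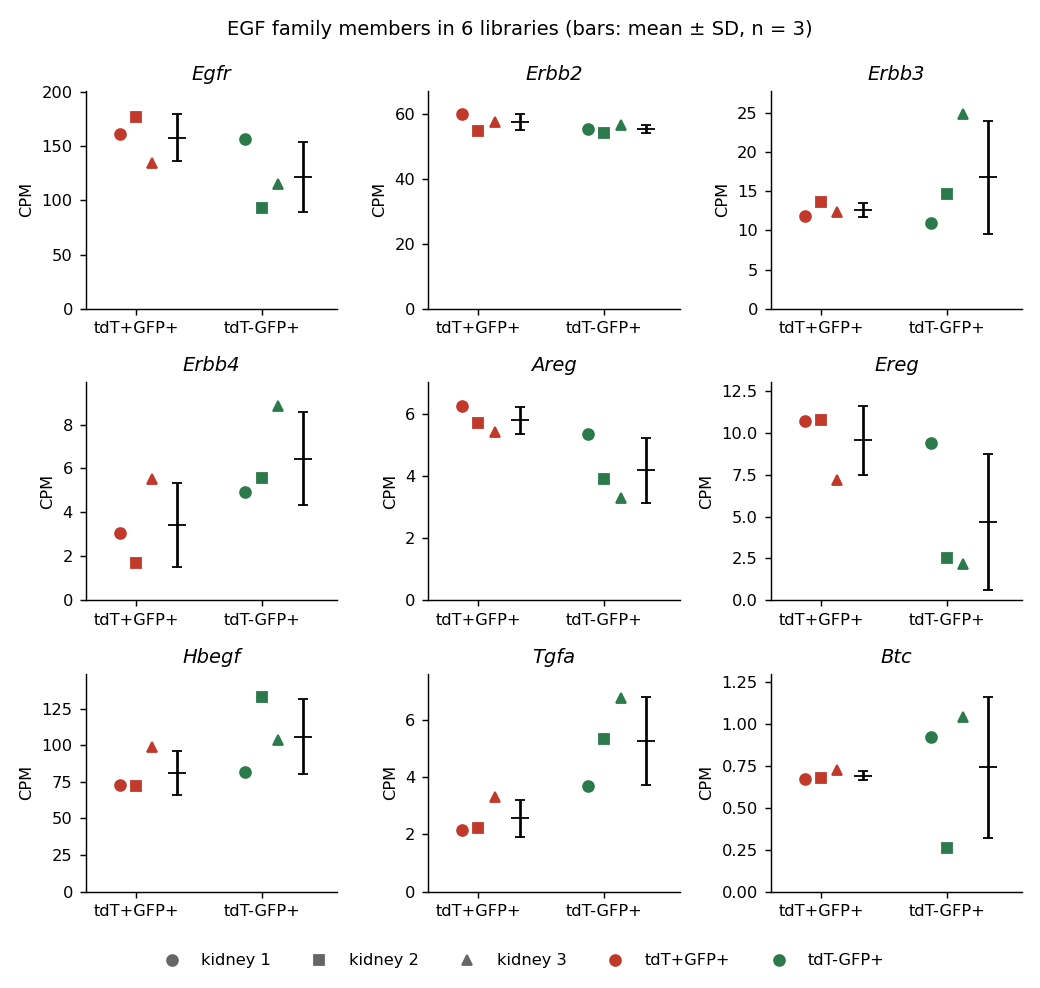
CPM of the 9 members in each library by sorted population, with marker shape for the kidney and black bars for mean ± SD (n = 3 per group). The groups are separate for Areg and Tgfa, and library 1 of tdT-GFP+ cells lies with the tdT+GFP+ libraries for Egfr and Ereg.

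**Figure D3:**
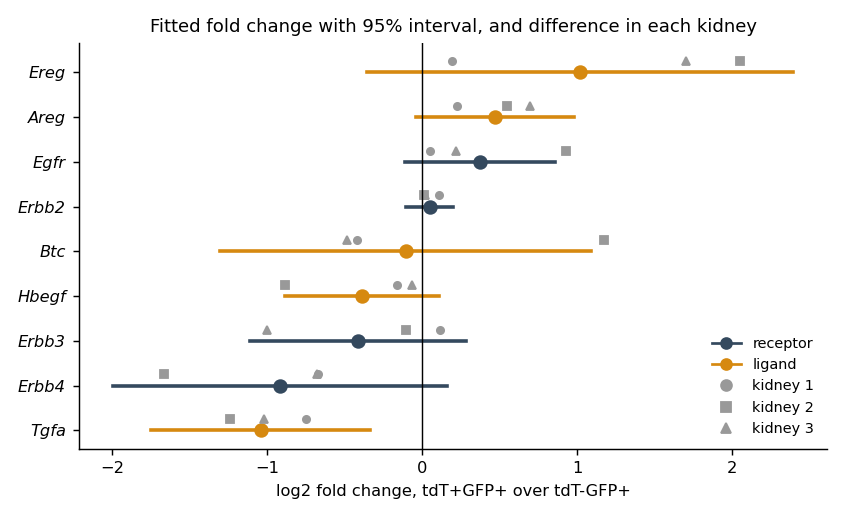
Log2 fold change of each member with its 95% interval from the edgeR fit, coloured by role, and in grey the difference of log2 CPM in each kidney. Ereg has the widest interval, from -0.36 to 2.40, and the Tgfa interval runs from -1.75 to -0.33 without adjustment for the number of genes.

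Several members ordered the 6 libraries alike or in reverse. The largest correlations of log2 CPM among the 36 pairs of members, given as a description, were Pearson's r = -0.983 for Egfr and Hbegf, 0.974 for Areg and Ereg, -0.956 for Areg and Tgfa, -0.932 for Ereg and Tgfa and 0.915 for Egfr and Ereg. The order of the libraries was exactly reversed (Spearman's rho = -1) for Egfr and Hbegf, for Areg and Tgfa, and also for Ereg and Erbb4, whose r was -0.763. The 6 points come from 3 kidneys, and both genes of a pair are read from the same libraries.

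Among 13182 genes with a mean of at least 1 CPM, the most similar pattern to Tgfa was that of Ptp4a3, a tyrosine phosphatase gene (Pearson's r = 0.998 over the 6 libraries). Efnb2, an ephrin ligand gene known from arterial endothelium, and Mansc1 came next at 0.997 each. Prkd3, a protein kinase gene, was most like Egfr (0.998), Ube2v2 most like Areg (0.998), Tmem123 most like Ereg (0.998) and Arl6ip5 most like Hbegf (0.999). For Erbb3 it was the kinesin gene Kif16b (0.997) and for Erbb4 the kinase gene Pim2 (0.992). Each is the highest of 13182 values over 6 points, and carries no test. Erbb2, whose SD of log2 CPM was under 0.3, and Btc, with a mean under 1 CPM, were not compared.

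The markers of other cells in the sort differed between libraries. Myofibroblast and stromal genes dominated, with Acta2 at 943 to 1747 CPM and a sum over 12 stromal genes of 66125 to 73644 CPM in tdT+GFP+ and 52155 to 76939 CPM in tdT-GFP+ libraries. The sum over 12 endothelial genes such as Pecam1 was 692 to 1252 CPM in tdT+GFP+ and 1294 to 2918 CPM in tdT-GFP+ libraries, with all 12 log2 fold changes negative. The sum over 12 genes of the loop of Henle, distal tubule and collecting duct was 159 to 622 and 497 to 1067 CPM, with 11 of 12 negative, and that over 12 proximal tubule genes was 578 to 697 and 383 to 1308 CPM, with 7 of 12 negative. The highest proximal tubule sum, in library 2 of tdT-GFP+ cells, held 1070 CPM of Aqp1, while Lrp2 had 42.9 CPM there and was highest in library 3 of tdT-GFP+ cells (161 CPM) and library 2 of tdT+GFP+ cells (140 CPM). All 12 general and injured epithelial genes, such as Epcam, had negative values (sums of 2362 to 3593 against 2674 to 6014 CPM). These sums were mostly Spp1 (1977 to 3157 against 2025 to 4795 CPM). The 12 macrophage genes such as Adgre1 all had positive values (525 to 1897 against 382 to 1117 CPM). Pericyte genes such as Rgs5 were at 1094 to 1314 against 1311 to 2140 CPM and podocyte genes such as Nphs1 at 399 to 471 against 486 to 608 CPM. Mesothelial genes such as Msln (41.2 to 81.8 against 52.9 to 81.2 CPM), Schwann cell genes (143 to 165 against 121 to 169 CPM) and lymphocyte genes such as Cd3e (10.3 to 14.7 against 14.1 to 20.5 CPM) were overlapping. No marker list had a gene at 0 in all libraries, and none had a gene called in edgeR. The part of these cells in the values of the EGF family members was not tested.

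Among the ligand genes outside the 9, Egf had lower values in all tdT+GFP+ libraries. Egf had 3.02, 2.26 and 9.40 CPM in the tdT+GFP+ cells of kidneys 1, 2 and 3, against 13.4, 12.9 and 21.6 CPM in the tdT-GFP+ cells, and the groups did not overlap. Egf had a log2 fold change of -1.72 (edgeR, SE 0.55, adjusted p = 0.438), and -2.58 without library 3 of tdT+GFP+ cells. DESeq2 gave an adjusted p of 0.0528. With the kidney as a block the adjusted p was 5.71e-05 in DESeq2 and 0.279 in edgeR. The counts do not bear out the kidney numbers on which that block rests. Like Erbb4, Egf was lowest in the library where Umod was lowest and highest where Umod was highest. The summed loop and distal tubule markers had their lowest and highest values in the same libraries, and their part in the Egf values was not tested. The neuregulin gene Nrg1, a ligand of ErbB3 and ErbB4, stood at 8.22 ± 0.595 against 9.04 ± 3.93 CPM and Nrg2 at 1.99 ± 0.378 against 2.11 ± 0.364 CPM (SD, n = 3 each). Nrg4 was low, at 0.431 ± 0.0827 against 0.223 ± 0.0734 CPM (SD, n = 3 each), with groups that did not overlap and a log2 fold change of 0.93 (edgeR, SE 0.41, adjusted p = 0.471). The epigen gene Epgn had 0 to 2 reads and Nrg3 0 to 1 read per library and were not tested. Of the 4 tested, 1 was higher and 1 lower without overlap, beside 7.23% and 8.6% of all genes tested.

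**Figure D4:**
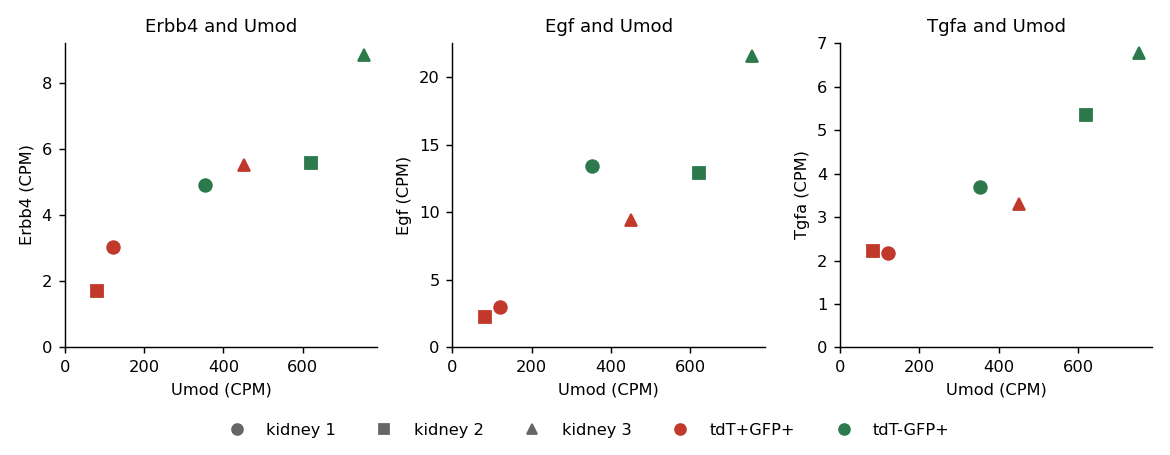
CPM of Erbb4, Egf and Tgfa against CPM of Umod in the 6 libraries, coloured by sorted population with marker shape for the kidney. Library 3 of tdT-GFP+ cells is highest in all panels, with 754 CPM of Umod, and library 2 of tdT+GFP+ cells has the least Umod, 82.5 CPM.

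Genes that act on the export or release of the ligands had values of both signs, and they do not all favour release. Among 10 of them, log2 fold changes were positive for 6 and negative for 4 with a median of 0.01, and 0 passed in edgeR. The groups overlapped for all 10. The named ones were Cnih1, a cargo receptor for growth factor precursors, at 51.0 ± 0.719 against 45.3 ± 5.28 CPM (log2 fold change 0.17) and the rhomboid family genes Rhbdl3 (0.20), Rhbdl2 (-0.84) and Rhbdf1 (-0.10), with adjusted p of 0.512 to 0.644 in edgeR.

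None of the adaptors and kinases below the receptors passed. Among 21 of them, log2 fold changes were positive for 15 and negative for 6, around a median of 0.04. Without overlap, 1 of the 21 was higher and 2 were lower, beside 7.23% and 8.6% of all genes tested. The docking protein gene Gab1 was lower without overlap, at 44.7, 44.9 and 44.9 CPM in the tdT+GFP+ cells of kidneys 1, 2 and 3, against 51.0, 48.9 and 56.9 CPM in the tdT-GFP+ cells (log2 fold change -0.22, SE 0.08, adjusted p = 0.438, edgeR). The phospholipase gene Plcg1, also lower without overlap, had -0.12 and the kinase gene Map2k1 0.14 (adjusted p = 0.514 and 0.528, edgeR).

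Most negative regulators of the receptors had positive values, none past the test. Among 20 tested, log2 fold changes were positive for 15 and negative for 5, with a median of 0.12. Groups did not overlap for 2 of the 20 in the higher and 1 in the lower direction, beside 7.23% and 8.6% of all genes tested. Errfi1, an EGFR-induced inhibitor of the receptor kinases, was abundant, at 794, 789 and 612 CPM in the tdT+GFP+ cells of kidneys 1, 2 and 3, against 588, 378 and 442 CPM in the tdT-GFP+ cells. All tdT+GFP+ libraries lay above all tdT-GFP+ libraries. This gave Errfi1 a log2 fold change of 0.64 (edgeR, SE 0.19, adjusted p = 0.415), with adjusted p of 0.0637 in DESeq2 and 0.0294 in DESeq2 with the kidney as a block. With that block edgeR gave Errfi1 an adjusted p of 0.478. The ubiquitin ligase gene Rnf41, whose product acts on ErbB3, had 54.0 ± 3.62 against 44.8 ± 3.23 CPM without overlap (SD, n = 3 each, log2 fold change 0.27). Cblb, a ligase gene for activated receptors, had 78.2 ± 7.03 against 63.3 ± 6.75 CPM with overlap (0.30). Lrig1, a further receptor antagonist gene, went the other way (-0.32), and these 3 had adjusted p of 0.429 to 0.484 in edgeR.

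Most genes that respond to ERK signalling had negative values, again with 0 past the test in edgeR. Among 17 tested, log2 fold changes were positive for 5 and negative for 12, around a median of -0.10. Lower values without overlap were found for 2 of the 17, beside 8.6% of all genes tested. Epha2, an ephrin receptor gene, had 34.6, 38.4 and 46.9 CPM in the tdT+GFP+ cells of kidneys 1, 2 and 3, against 49.9, 58.6 and 71.7 CPM in the tdT-GFP+ cells, without overlap. Epha2 had a log2 fold change of -0.59 (edgeR, SE 0.17, adjusted p = 0.414), with adjusted p of 0.0748 in DESeq2 and 0.00564 in DESeq2 with the kidney as a block. With that block edgeR gave Epha2 an adjusted p of 0.237. The ERK phosphatase gene Dusp5 had 26.5 ± 0.801 against 35.4 ± 6.05 CPM without overlap (SD, n = 3 each, log2 fold change -0.42), while Fosl1 (-0.94) and Etv5 (0.26) overlapped. Over the 5 lists together, log2 fold changes were positive for 42 and negative for 30 of 72 tested genes, with a median of 0.03 beside -0.0004 for all genes tested. An unadjusted p under 0.05 was found for 7 of the 72, beside 10.7% of all genes tested. With the kidney as a block, DESeq2 called 3 of them, Egf and Epha2 lower and Errfi1 higher, where it called 1.95% of all genes with an adjusted p (0.287% higher, 1.66% lower), and edgeR called 0.

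**Figure D5:**
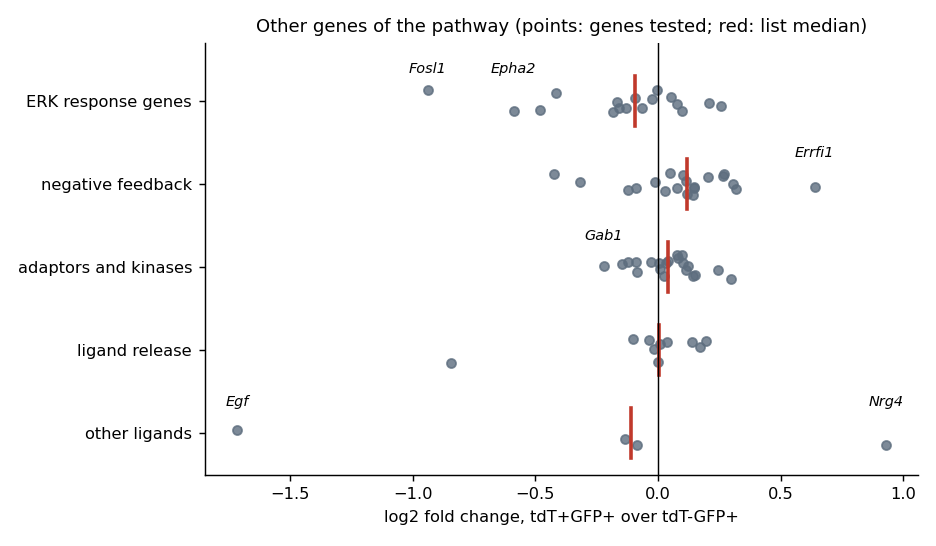
Log2 fold change (tdT+GFP+ over tdT-GFP+) of every tested gene in the 5 pathway lists, with vertical jitter, and the list median in red. Medians lie between -0.11 and 0.12, and the lowest and highest genes are Egf at -1.72 and Nrg4 at 0.93.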

How the data were processed

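Poly(A) RNA of 6 libraries was counted per gene. The authors deposited estimated counts per gene, which were whole numbers throughout; the submitters' processing notes name STAR 2.6.1, RSEM 1.2.28 and DESeq2 1.26.0. They list mm10 and GRCh38 with no role stated. No source used here names the annotation. The 92 spike-in rows, all 0, were left out. Library totals ran from 25697348 to 33029933 reads, so that 3 reads are 0.0908 to 0.117 CPM. The p-values and intervals measure the spread between these libraries, which may be partly technical.

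Low genes were removed by filterByExpr. Sizes were scaled by TMM, and edgeR 4.0.16 in R 4.3.3 gave the test (robust quasi-likelihood fit on group alone), adjusted by Benjamini-Hochberg over all genes with a threshold of 0.05. Fold changes were not shrunken, each SE is the log2 fold change divided by the square root of F, and log2 CPM has a prior count of 2. Alternatives were other scaling and filters, DESeq2 1.42.0, limma-voom 3.58.1, the kidney as a block, and leaving out each library or kidney. Coordinates and exon lengths are from GENCODE M21 (GRCm38), in which 31748 gene identifiers were found without version numbers. On 3 simulated data sets of this comparison (15253 genes tested on average) 55.0% of genes changed 2-fold and 87.3% of those changed 4-fold were recovered. Counts were drawn for each gene on its own, so differences between libraries that many genes share were not simulated. The rates cover genes of all levels, not the levels of the members. In the data themselves edgeR called 0 genes, so these rates may be too high for them.

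The members and lists were chosen with earlier results of these data known. All members are named. Of each pathway list the 4 genes with the smallest p are named, of each marker list the first gene, and the genes most alike in pattern are those with the highest Pearson correlation over the libraries. A few genes that this rule would name are not reported here, and Aqp1, Ier2 and Sox10 were named after their values were seen. The labels name the source of each library as kidney 1, 2 or 3, so libraries of equal number are paired by the labels. In a check across genes, deviations of paired libraries from their group mean had correlations of 0.04, -0.58 and -0.30 in kidneys 1, 2 and 3, and of 0.448 and 0.444 when libraries 2 and 3 were taken crosswise. The counts thus do not bear out the numbers, and blocked fits and values per kidney have the labels as their only ground.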

Additional observations from a re-analysis of the deposited data

How the results depend on the processing

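The number of the 9 members called was 0 in each of the 17 alternatives, and the 8 members other than Btc kept the sign of their log2 fold change in each. Btc turned to 0.098 in limma-voom and, with the kidney as a replicate block, to 0.049 in edgeR and 0.079 in DESeq2. When 1 library or kidney was left out Btc ranged from -0.51 to 0.21, positive without library 1 or 3 of tdT-GFP+ cells and without kidney 1 or 3. Btc was not tested where at least 1 CPM in 3 libraries was required. In the whole table edgeR, also with the replicate block, and limma-voom called 0 genes, whereas DESeq2 called 281 (17 higher, 264 lower in tdT+GFP+ cells) and 278 (41 higher, 237 lower) with the replicate block. Among pathway genes the count of calls was 0, and 3 in DESeq2 with the replicate block, which changed no call of a member. Leaving out 1 library or kidney moved Nrg1 between -0.38 and 0.32, positive without library 3 of tdT-GFP+ cells or kidney 3. Likewise Nrg2 ran from -0.35 to 0.19, positive without kidney 1 or either of its libraries, and Rhbdf1 from -0.20 to 0.018, positive without kidney 1. With the longest transcript as length Hbegf had 32.4 and Erbb2 11.3 CPM per kb. Beyond the choice of length, the cause of these changes was not tested. Btc rests on 7 to 28 reads per library.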
